A study of Homo sapiens with 6 samples.

Results

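Epithelial-mesenchymal transition (EMT) was examined in CAL62 cells through 10 genes, VIM, FN1, CDH2, CDH1, EPCAM, SNAI1, SNAI2, TWIST1, ZEB1 and ZEB2. They were taken by gene symbol from a count table of 39168 Ensembl identifiers, as a set chosen with earlier results of these data known, and 9 of the 10 were among the 12821 genes with enough reads to be tested. CAL62 is a human cell line derived from an anaplastic thyroid carcinoma (ATC). Wild-type cells received 50 nM erianin, a bibenzyl natural product, or DMSO, its solvent, as the control, and total RNA was sequenced after 48 h from 3 libraries per group. The comparison asks how the level of each EMT gene in DMSO cells changed with erianin. Both groups come from 1 cell line grown in 1 medium, and the labels do not say whether the 3 libraries of a group were separate cultures, so p-values measure only the spread between these libraries.

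In EMT, epithelial cells lose their cell-cell junctions and gain a motile, mesenchymal form. E-cadherin (CDH1) and EPCAM hold epithelial cells together, while vimentin (VIM), fibronectin (FN1) and N-cadherin (CDH2) are the usual mesenchymal markers. The zinc finger proteins SNAI1, SNAI2, ZEB1 and ZEB2 and the bHLH protein TWIST1 are the classical EMT factors, and the SNAI and ZEB proteins bind E-boxes in the CDH1 promoter to repress it. ATC is an undifferentiated tumor in which mesenchymal markers are often high.

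With erianin, SNAI1 rose 3.14-fold and FN1 fell to 0.576 of its DMSO level. VIM was lower by a smaller step that passed the adjusted p alone. CDH1 was close to 0 reads in all 6 libraries, and EPCAM, CDH2, TWIST1, ZEB1, ZEB2 and SNAI2 were not called. A gene was called a differentially expressed gene (DEG) when edgeR's quasi-likelihood test gave a Benjamini-Hochberg (BH) adjusted p under 0.05 over all genes tested and the absolute log2 fold change was over 0.5. By this rule 8.73% of all tested genes were DEGs, 5.37% higher and 3.36% lower with erianin. Of the 9 tested EMT genes, 1 was called higher and 1 lower.

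The promoters of FN1 and VIM are shown because these genes encode the most abundant transcripts of the set and both were lower with erianin. Promoter windows of RefSeq on GRCh38.p14 were matched for 5 of the 10 genes. They were read over the 250 bases before the annotated start, written 5′ to 3′ on the gene's strand. The FN1 stretch lies at chr2:215436173-215436318 on the minus strand and stops at the first base of a GENCODE 29 exon, which leaves out 104 bases of the window nearest the start. The VIM stretch lies at chr10:17227991-17228240 on the plus strand. Capitals mark the motifs searched on both strands, namely TGACGTCA (the cAMP response element), CCAAT (the CCAAT box bound by NF-Y), TATAA (the core letters of a TATA box) and CAGGTG (the E-box that SNAI and ZEB proteins bind).
FN1: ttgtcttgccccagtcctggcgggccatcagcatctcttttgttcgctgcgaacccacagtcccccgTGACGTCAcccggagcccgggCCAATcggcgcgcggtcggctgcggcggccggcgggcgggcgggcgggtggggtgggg
VIM: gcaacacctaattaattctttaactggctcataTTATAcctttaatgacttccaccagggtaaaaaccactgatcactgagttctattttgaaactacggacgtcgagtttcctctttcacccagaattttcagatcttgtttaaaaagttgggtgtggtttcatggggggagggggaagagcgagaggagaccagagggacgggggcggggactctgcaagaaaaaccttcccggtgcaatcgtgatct
FN1 held the cAMP response element 183 to 176 bases before its start, the CCAAT box at 162 to 158 and, in the bases not printed, the TATA letters at 28 to 24. Of 35116 promoter windows of this length, 1.65% held the cAMP response element, 32.0% the CCAAT box and 18.9% the TATA letters on either strand. The VIM window held only the TATA letters, on the minus strand 217 to 213 bases before the start. The E-box, present in 17.5% of all windows, was in neither, and among the matched genes it was in 2 of the 7 windows of ZEB1. These are matches of letters, not sites shown to be bound.

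The libraries held 25776301 to 34107727 reads on named genes. Levels within a gene are in CPM, read counts scaled to library size by TMM factors. DMSO replicate 3 stood apart from DMSO replicates 1 and 2, at Euclidean distances of 64.1 and 62.9 in log2 CPM against 37.3 between those 2 and 28.2 to 29.01 among the erianin libraries. Leaving it out lowered the edgeR estimate of the biological coefficient of variation from 0.139 to 0.0421. The change of each tested EMT gene is given with and without it, as are related genes described below whose call it changed. Among 7 thyroid markers, TSHR and NKX2-1 were at 0 reads in all 6 libraries, and TG and SLC5A5 were near 0. PAX8, the thyroid lineage factor, was at 676 ± 55.2 CPM (SD, n = 3) in DMSO and 428 ± 7.88 with erianin (log2 fold change -0.66, SE 0.08, edgeR BH-adjusted p = 0.00404). FOXE1 was at 1.57 ± 0.633 and 1.61 ± 0.105 CPM. The 8 markers of leukocytes, endothelium, erythrocytes and fibroblasts summed to 0.514 to 0.770 CPM in DMSO and 1.11 to 1.20 CPM with erianin, with HBB at 0 throughout. Their part in the results was not tested.

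Between genes, levels were compared as CPM per kb of the longest annotated transcript. In DMSO, FN1 was highest at 634 ± 94.2 CPM per kb (SD, n = 3) and VIM next at 483 ± 72.9. By the mean over the libraries of both groups, they stood at the 99.3 and 99.1 percentiles of all tested genes. Both are structural genes, of the extracellular matrix and of the intermediate filament network. CDH2 at 12.5 ± 1.94, EPCAM at 10.8 ± 0.933 and TWIST1 at 9.51 ± 0.483 followed in DMSO, and the ranges of CDH2 and EPCAM overlapped. SNAI1 at 5.22 ± 0.663, ZEB2 at 3.99 ± 1.30 and ZEB1 at 3.88 ± 1.92 came next, with overlapping ranges between each neighboring pair. SNAI2 was at 0.380 ± 0.162 and CDH1 at 0.0108 ± 0.00998. So FN1 and VIM stood well above the factors, and by this length the marker EPCAM was near the level of CDH2 while CDH1 was nearly absent. Taking merged exons as the length instead, EPCAM was at 7.42 and CDH2 at 10.96 CPM per kb in DMSO.

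**Figure D1:**
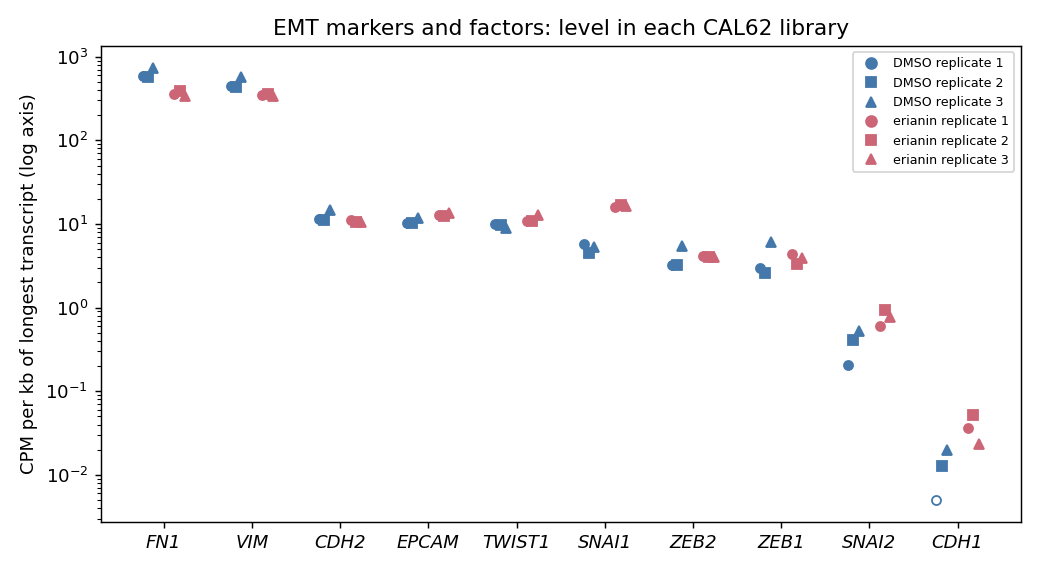
Level of each EMT gene in the 6 libraries, in CPM per kb of the longest transcript on a log axis, with DMSO in blue, erianin in red and the replicates as circle, square and triangle. The open circle marks the DMSO library with 0 CDH1 reads, drawn at the bottom of the axis. SNAI1 moves from 5.22 to 16.4 CPM per kb, while FN1 moves from 634 to 366.

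With erianin, SNAI1 moved from place 6 to place 3 in the order, and CDH2 from place 3 to place 6. FN1 at 366 ± 27.7 CPM per kb (SD, n = 3) and VIM at 350 ± 7.97 then overlapped. SNAI1 came after them at 16.4 ± 0.416, above EPCAM at 13.0 ± 0.506, TWIST1 at 11.6 ± 1.15 and CDH2 at 10.8 ± 0.258. The ranges of EPCAM and TWIST1, and of TWIST1 and CDH2, overlapped. ZEB2 at 4.06 ± 0.0554 and ZEB1 at 3.87 ± 0.483 overlapped each other, and SNAI2 at 0.766 ± 0.165 and CDH1 at 0.0373 ± 0.0147 stayed last. With merged exons as the length, FN1, VIM, SNAI2 and CDH1 held the same places in both groups. EPCAM stood below TWIST1 in DMSO and below CDH2 and TWIST1 with erianin, and CDH2 moved only from place 3 to place 4. ZEB1 then stood above ZEB2, at 2.81 against 1.53 CPM per kb in DMSO and 2.80 against 1.55 with erianin.

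SNAI1 (ENSG00000124216, chr20:49982999-49988886) encodes the SNAIL repressor. It was at 9.77, 7.58 and 9.05 CPM in DMSO replicates 1, 2 and 3 and at 26.8, 28.2 and 27.8 CPM in the erianin replicates. Every erianin library was above every DMSO library, with no value between 9.77 and 26.8. The means were 8.80 ± 1.12 and 27.6 ± 0.702 CPM (SD, n = 3). SNAI1 rose by a log2 fold change of 1.65 (SE 0.12, 95% interval 1.37 to 1.93, edgeR BH-adjusted p = 0.00102), and ranked 153 from the highest log2 fold change of the 12821 genes. The change was 1.68 without DMSO replicate 3.

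SNAI2 (ENSG00000019549, chr8:48917604-48921740) encodes SLUG, a paralog of SNAI1. Its reads numbered 14, 38 and 46 in DMSO and 58, 92 and 76 with erianin, which is 0.575, 1.17 and 1.48 CPM against 1.70, 2.63 and 2.17 CPM. The groups did not overlap, although erianin replicate 1 was close to DMSO replicate 3. The log2 fold change was 0.98 (SE 0.33, 95% interval 0.21 to 1.76, edgeR BH-adjusted p = 0.0906), so SNAI2 was not called. It was called by DESeq2 (0.99, BH-adjusted p = 0.0354), by limma on log2(TPM + 1) (0.81, BH-adjusted p = 0.0405, on TPM columns of unequal total) and by edgeR without DMSO replicate 3 (1.26, BH-adjusted p = 0.000810).

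FN1 (ENSG00000115414, chr2:215360440-215436172) encodes fibronectin, whose promoter stretch with the cAMP response element is given above. It was at 5366, 5272 and 6814 CPM in DMSO and at 3330, 3617 and 3112 CPM with erianin. All erianin libraries were lower than all DMSO libraries, and the highest value belonged to DMSO replicate 3. The means were 5817 ± 864 and 3353 ± 254 CPM (SD, n = 3). FN1 changed by a log2 fold change of -0.80 (SE 0.12, 95% interval -1.07 to -0.52, edgeR BH-adjusted p = 0.00761), and it ranked 159 from the lowest. Without DMSO replicate 3 the value was -0.67. The call was lost without erianin replicate 1 (-0.80, edgeR BH-adjusted p = 0.0550) and without erianin replicate 3 (-0.74, edgeR BH-adjusted p = 0.0559), with FN1 lower in every erianin library.

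VIM (ENSG00000026025, chr10:17228259-17237593) was at 1202, 1153 and 1511 CPM in DMSO and at 926, 956 and 915 CPM with erianin. The groups did not overlap, and DMSO replicate 3 was again the highest. The means were 1289 ± 194 and 932 ± 21.2 CPM (SD, n = 3), with a log2 fold change of -0.47 (SE 0.11, 95% interval -0.72 to -0.21, edgeR BH-adjusted p = 0.0301). VIM thus passed the adjusted p but not the threshold on fold change. It was called without DMSO replicate 2 (-0.55, edgeR BH-adjusted p = 0.0406), and was at -0.34 without DMSO replicate 3. The adjusted p lay between 7.08e-09 and 0.131 over 17 alternative fits. In each library the FN1 level per kb was divided by that of VIM, a ratio chosen after the values were seen and not tested. It was 1.30, 1.33 and 1.31 in DMSO and 1.05, 1.10 and 0.988 with erianin.

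**Figure D2:**
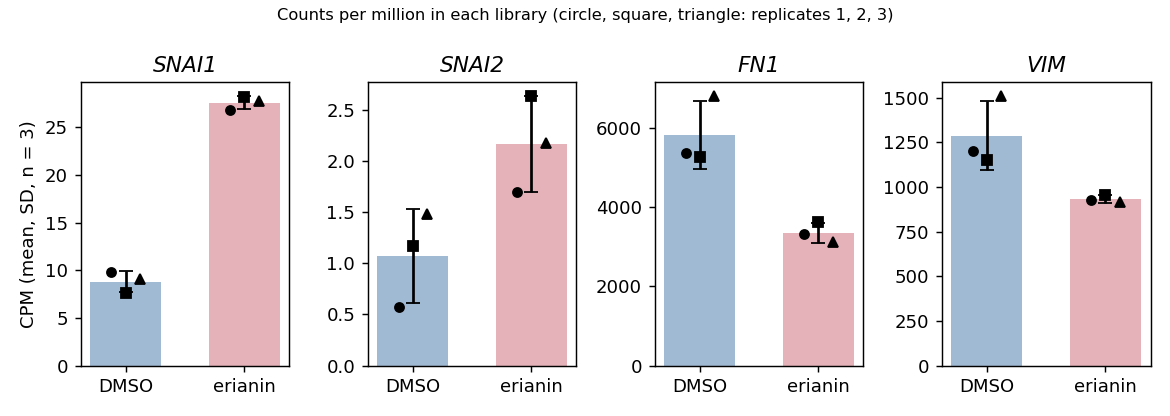
CPM of SNAI1, SNAI2, FN1 and VIM in each library, with bars at the group mean and error bars of 1 SD (n = 3 libraries per group). In all 4 genes the erianin points lie on one side of the DMSO points, and DMSO replicate 3 (triangle) is the highest DMSO library for FN1, VIM and SNAI2.

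Neither CDH2 nor EPCAM was called. CDH2 (ENSG00000170558, chr18:27950966-28177446), the N-cadherin gene, was at 50.0, 48.9 and 63.9 CPM in DMSO and at 48.2, 46.4 and 46.1 CPM with erianin. The groups did not overlap, but erianin replicate 1 lay just under DMSO replicate 2. Its log2 fold change was -0.21 (SE 0.12, 95% interval -0.48 to 0.06, edgeR BH-adjusted p = 0.271), and -0.08 without DMSO replicate 3. EPCAM (ENSG00000119888, chr2:47345158-47387601) was at 17.8, 17.7 and 20.5 CPM in DMSO and at 22.4, 21.6 and 23.3 CPM with erianin. All erianin libraries were above all DMSO libraries, with a log2 fold change of 0.26 (SE 0.10, 95% interval 0.02 to 0.50, edgeR BH-adjusted p = 0.132). Without DMSO replicate 3 it was 0.33 (edgeR BH-adjusted p = 0.000912), and limma on TPM gave 0.44 to 0.46 (BH-adjusted p = 0.0121 to 0.0177), all under the threshold on fold change. The TPM columns have unequal totals, and the median of all genes was itself 0.12 to 0.20 in those limma fits. The CDH2 to EPCAM ratio of levels per kb, likewise chosen after the values were seen and not tested, was 1.12, 1.10 and 1.24 in DMSO and 0.857, 0.857 and 0.788 with erianin.

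CDH1 (ENSG00000039068, chr16:68737225-68835548), the E-cadherin gene, had 0, 2 and 3 reads in the DMSO libraries and 6, 9 and 4 in the erianin libraries. It did not pass the filter on low counts and was not tested. Scaled to library size, the 19 erianin reads against 5 DMSO reads gave a ratio of 3.21 with a 95% exact interval of 1.16 to 11 that covers counting error only. The log2 ratio of CDH2 to CDH1 differed by -1.42 between erianin and DMSO over the 5 libraries with a CDH1 read, which leaves out DMSO replicate 1 because it had 0 (exact two-sided permutation p = 0.2). Over all 6 libraries, with 0.1 TPM added to both genes, the difference was -0.34 (exact two-sided permutation p = 0.1). Neither design allows a p below 0.1. CDH1 was at 0.0551 TPM or less in every library, so the size of -0.34 depends on the 0.1 TPM added. CDH2 was at a mean of 31.8 TPM in DMSO and 31.7 with erianin, so both differences mainly restate the few CDH1 reads. The level of E-cadherin RNA was thus at the limit of this depth in both groups. In bulk RNA, fewer cells with a transcript and less of it per cell cannot be told apart.

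TWIST1 (ENSG00000122691, chr7:19020991-19117672) was at 16.5, 16.1 and 14.9 CPM in DMSO and at 18.1, 18.2 and 21.5 CPM with erianin. The groups did not overlap. The log2 fold change was 0.28 (SE 0.11, 95% interval 0.02 to 0.54, edgeR BH-adjusted p = 0.132). It was 0.24 without DMSO replicate 3 (edgeR BH-adjusted p = 0.0265) and 0.46 to 0.48 by limma on TPM (BH-adjusted p = 0.0418 to 0.0525), under the threshold on fold change in each. The limma values again rest on TPM columns of unequal total. ZEB1 (ENSG00000148516, chr10:31318495-31529814) was at 18.6, 16.2 and 38.2 CPM in DMSO and at 27.1, 21.1 and 24.4 CPM with erianin. ZEB2 (ENSG00000169554, chr2:144364364-144524583) was at 31.1, 30.9 and 52.7 CPM in DMSO and at 39.3, 38.3 and 39.1 CPM with erianin. For both ZEB genes the erianin libraries lay above DMSO replicates 1 and 2 and below DMSO replicate 3. The log2 fold change of ZEB1 was -0.01 (SE 0.31, 95% interval -0.73 to 0.71, edgeR BH-adjusted p = 0.992). Without DMSO replicate 3 it was 0.48, with an edgeR BH-adjusted p of 5.82e-05. ZEB2 was at 0.02 (SE 0.20, 95% interval -0.45 to 0.50, edgeR BH-adjusted p = 0.954), and at 0.32 without that library (edgeR BH-adjusted p = 0.000114). Neither reached the threshold on fold change, and the direction of both depended on the libraries and scaling used. The antisense gene ZEB1-AS1 had 99, 164 and 224 reads in DMSO and 145, 172 and 171 with erianin, and overlaps ZEB1 on the other strand. ZEB2-AS1 had at most 2 reads in a library and VIM-AS1 none.

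Of the 9 tested genes, 7 had groups that did not overlap, 4 higher and 3 lower with erianin. This was so for 38.7% of all tested genes, 19.5% higher and 19.3% lower. An adjusted p under 0.05 at any fold change was given by 3 genes, 1 higher and 2 lower, beside 14.9% of all tested genes, 7.22% higher and 7.69% lower. The log2 fold changes were above 0 for 5 genes and below 0 for 4. Their median was 0.02, beside 0.00138 over all genes. The mesenchymal markers FN1, VIM and CDH2 all had negative values, and the factors SNAI1, SNAI2 and TWIST1 all had positive ones, in all 17 alternative fits, although CDH2 was at -0.0012 to -0.0011 by limma on TPM. The factors ZEB1 and ZEB2 did not share this, with the sign reversed in 8 and 4 of the 17 fits. Of 18 other EMT factors tested, described below, 9 were above 0 and 9 below.

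**Figure D3:**
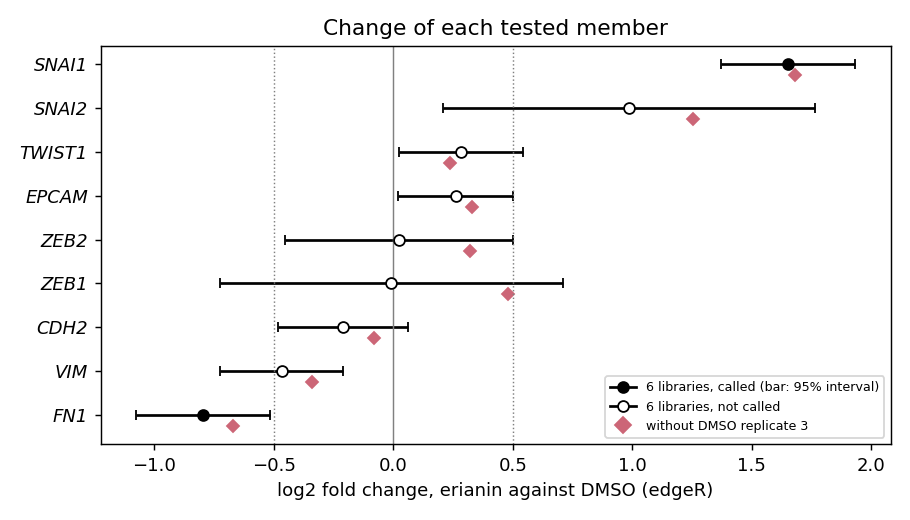
Log2 fold change of the 9 tested EMT genes, erianin against DMSO, with 95% intervals from edgeR over 6 libraries, filled where called, and dotted lines at 0.5 either side of 0. Red diamonds give the value without DMSO replicate 3, which moves ZEB1 from -0.01 to 0.48 and ZEB2 from 0.02 to 0.32 and leaves SNAI1 at 1.68 and FN1 at -0.67.

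The genes whose profile over the 6 libraries was most like each EMT gene were found by the root mean square difference of centered log2 CPM. For SNAI1 they were HSPA5 (0.114), PKD1L2 (0.141) and CCL20 (0.144). HSPA5, the endoplasmic reticulum chaperone BiP, was at 996 CPM in DMSO and 3311 CPM with erianin (log2 fold change 1.73, edgeR BH-adjusted p = 0.000129). For FN1 the nearest were E2F5 (0.0448), TIRAP (0.0589) and RNF157 (0.0623), and for VIM PIGT (0.0150), DCAF16 (0.0201) and RBMX (0.0234). ZEB1 was nearest to UTP14C (0.0457), THOC2 and CENPJ, ZEB2 to NUP153 (0.0257), BRAF and IQGAP1, and CDH2 to ADNP (0.0179), NUTF2 and CUL1. EPCAM was nearest to NMD3 (0.0204), PPM1A and DHX36, TWIST1 was near TMX1 (0.0522) and TNS3 (0.0526), and SNAI2 was nearest to ENTPD2 (0.107), CPEB3 and UBE2V1. The likeness rests on 6 libraries in 2 groups, so any gene with a similar difference between the groups comes near.

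Other epithelial genes were led by simple keratins. KRT8, KRT18 and KRT19 were at 1408 ± 199, 890 ± 119 and 479 ± 114 CPM in DMSO and at 1418 ± 51.1, 772 ± 28.6 and 414 ± 14.3 CPM with erianin (SD, n = 3), with log2 fold changes of 0.01, -0.21 and -0.21. None of these 3 passed the adjusted p with all 6 libraries. Without DMSO replicate 3 they were at -0.11, -0.31 and -0.40 (edgeR BH-adjusted p = 0.0263, 1.51e-07 and 1.24e-09), KRT8 with the opposite sign. Of 33 epithelial genes 29 were tested, with 5 called higher and 0 lower and a median log2 fold change of 0.06. The called share was 17.2%, beside 8.73% of all tested genes, 5.37% higher and 3.36% lower. The 5 were CGN, of tight junctions (6.45 ± 1.21 to 11.6 ± 0.440 CPM, 0.85), the membrane protease gene ST14 (9.72 ± 2.13 to 18.5 ± 1.28 CPM, 0.93), the mucin gene MUC1 (1.70 ± 0.0844 to 2.72 ± 0.147 CPM, 0.67), and the epithelial transcription factors ELF3 (0.946 ± 0.397 to 2.65 ± 0.134 CPM, 1.46) and OVOL1. OVOL1 had 0, 2 and 0 reads in DMSO and 18, 17 and 14 with erianin, a ratio of 20.7 with a 95% exact interval of 5.43 to 176 for counting error only. It passed the filter on low counts only through the erianin libraries, so its call is no support for the count, and it dropped out when at least 10 counts were required in every library, which left 4 called. KRT7 (-0.37, edgeR BH-adjusted p = 0.0497) and the splicing regulator ESRP2 (-0.30, edgeR BH-adjusted p = 0.0327) passed the adjusted p but not the fold change. The 0 called lower stands beside 0 by DESeq2, and 10 of the 29 had an unadjusted p under 0.05 by edgeR in either direction. Leaving out any 1 erianin library left 0 of the 29 called by edgeR, with 7 or 8 at an unadjusted p under 0.05, and leaving out DMSO replicate 3 gave 8, of which 7 higher.

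Of 31 further mesenchymal genes 23 were tested, with 1 called higher and 3 lower and a median log2 fold change of -0.14. That is 17.4% called, beside 8.73% of all tested genes, 5.37% higher and 3.36% lower. The matrix gene TNC (tenascin C) was at 1906, 2022 and 1940 CPM in DMSO and at 1030, 1120 and 995 CPM with erianin. It fell in every library (log2 fold change -0.90, SE 0.08, edgeR BH-adjusted p = 0.00126). The receptor tyrosine kinase gene AXL, at 899 ± 42.4 CPM in DMSO and 543 ± 18.4 with erianin, and NT5E (CD73), at 340 ± 75.5 and 214 ± 3.12 CPM, fell with log2 fold changes of -0.73 and -0.67. COL1A2, the alpha-2 chain of type I collagen, rose from 9.80 ± 2.29 to 24.9 ± 1.996 CPM (1.35, edgeR BH-adjusted p = 0.00532), while COL1A1, named after its value was seen, was at 34.7 ± 2.39 and 27.8 ± 1.44 CPM (-0.32, not called). The abundant gene MSN (-0.09) was not called, and MMP14 (-0.33, edgeR BH-adjusted p = 0.0214) passed the adjusted p alone. TNC, AXL and COL1A2 were called whichever library was left out. NT5E was not called without DMSO replicate 3 (-0.48) or without any 1 of the erianin libraries.

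Among 21 other factors linked to EMT 18 were tested, with 2 called higher, 2 lower and a median of 0.02. These calls made up 22.2%, beside 8.73% of all tested genes, 5.37% higher and 3.36% lower. TWIST2, the paralog of TWIST1, was at 89.0 ± 10.3 CPM in DMSO and 57.7 ± 1.23 CPM with erianin (SD, n = 3), and the groups did not overlap. It fell (log2 fold change -0.63, SE 0.10, edgeR BH-adjusted p = 0.00884), where TWIST1 was at 0.28. HMGA2, a chromatin architectural factor, fell from 255 ± 40.1 to 162 ± 9.11 CPM (-0.66, edgeR BH-adjusted p = 0.0124). ID2 and ID3, inhibitors of bHLH factors, rose from 0.2302 ± 0.0999 to 1.51 ± 0.225 CPM (2.7048, edgeR BH-adjusted p = 0.00489) and from 7.26 ± 2.05 to 14.5 ± 0.612 CPM (0.99, edgeR BH-adjusted p = 0.0169). TCF3 (-0.30, edgeR BH-adjusted p = 0.0234) and ETS1 (0.36, edgeR BH-adjusted p = 0.0304) passed the adjusted p alone, and YBX1 at 973 ± 289 and 836 ± 20.2 CPM was not called (-0.22). ID2 had 6, 4 and 10 reads in DMSO and 54, 59 and 44 with erianin. It too passed the filter only through the erianin libraries, so its call is no support for the count. A filter of 10 counts per library removed it and left 3 genes called. Without any 1 erianin library ID2 was the only gene called, which for the same reason is no support. Limma on log2(TPM + 1) called ETS1, ID1, ID2, ID3 and SOX4 higher and none lower, and there too ID2 passed the TPM filter only through the erianin libraries.

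The cadherin partners were genes of catenins, of nectins and other adherens junction proteins, and of the protease ADAM10. Their log2 fold changes lay between -0.33 and 1.01, with the 4 catenin genes between -0.33 and 0.11 and none of those called. Of 12 genes 11 were tested, with 1 called higher, 0 lower and a median of 0.04, beside 0 lower by DESeq2 and 3 with an unadjusted p under 0.05 by edgeR in either direction. The 1 call is 9.09% of those tested, near the 8.73% of all tested genes. NECTIN1, an immunoglobulin-like junction protein, rose from 2.25 ± 0.186 to 4.56 ± 0.717 CPM (1.01, edgeR BH-adjusted p = 0.0113). CTNNA1 (0.11), NECTIN2 (0.07) and VCL (-0.24) were not called, and JUP (plakoglobin, -0.33, edgeR BH-adjusted p = 0.0213) passed the adjusted p alone. AFDN is listed at 0 in all libraries. As the annotation used for counting is not given, this 0 does not show that its RNA was absent. Without any 1 erianin library NECTIN1 was not called, with 2 or 3 of the 11 genes at an unadjusted p under 0.05.

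Of 10 partners of vimentin and fibronectin 8 were tested, with 0 called higher and 1 lower and a median of -0.15. The 1 call is 12.5% of those tested, beside 8.73% of all tested genes, 5.37% higher and 3.36% lower. PLEC, which encodes the vimentin cross-linker plectin, fell from 1213 ± 107 to 822 ± 17.5 CPM (-0.56, edgeR BH-adjusted p = 0.00718), and NES (nestin), which assembles with vimentin, was at 287 ± 40.5 and 209 ± 11.6 CPM (-0.46, edgeR BH-adjusted p = 0.0339). ITGB1 (-0.22), of the fibronectin receptor, SDC4 (0.26) and LMNA (0.01) were not called. The 0 higher stands beside 0 by DESeq2 and 3 with an unadjusted p under 0.05 by edgeR in either direction. Without any 1 erianin library PLEC was not called, with 2 of the 8 genes at an unadjusted p under 0.05, and without DMSO replicate 3 both PLEC and NES were called.

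TGF-beta is a classical inducer of EMT. Of 14 genes of its pathway 13 were tested, with 1 called higher, 1 lower and a median of 0.00478. Both calls together are 15.4%, beside 8.73% of all tested genes, 5.37% higher and 3.36% lower. TGFBI, a matrix gene named for its induction by TGF-beta, rose from 0.825 ± 0.0693 to 1.84 ± 0.0167 CPM (1.16, edgeR BH-adjusted p = 0.0107), while PMEPA1, a feedback inhibitor of the pathway, fell from 17.9 ± 2.27 to 12.3 ± 0.469 CPM (-0.54, edgeR BH-adjusted p = 0.0276). The ligand gene TGFB1 was at 434 ± 9.93 and 420 ± 7.33 CPM (-0.05), the receptor gene TGFBR2 at -0.21 and the co-repressor gene SKI at -0.15, and none of these was called. SMAD3 (-0.33, edgeR BH-adjusted p = 0.0275) passed the adjusted p alone. The calls were lost without any 1 of the erianin libraries, where 4 to 6 genes had an unadjusted p under 0.05. Without DMSO replicate 1, and without DMSO replicate 2, only TGFBI was called, and without DMSO replicate 3 SMAD7 and TGFB3 were called as well as both genes.

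**Figure D4:**
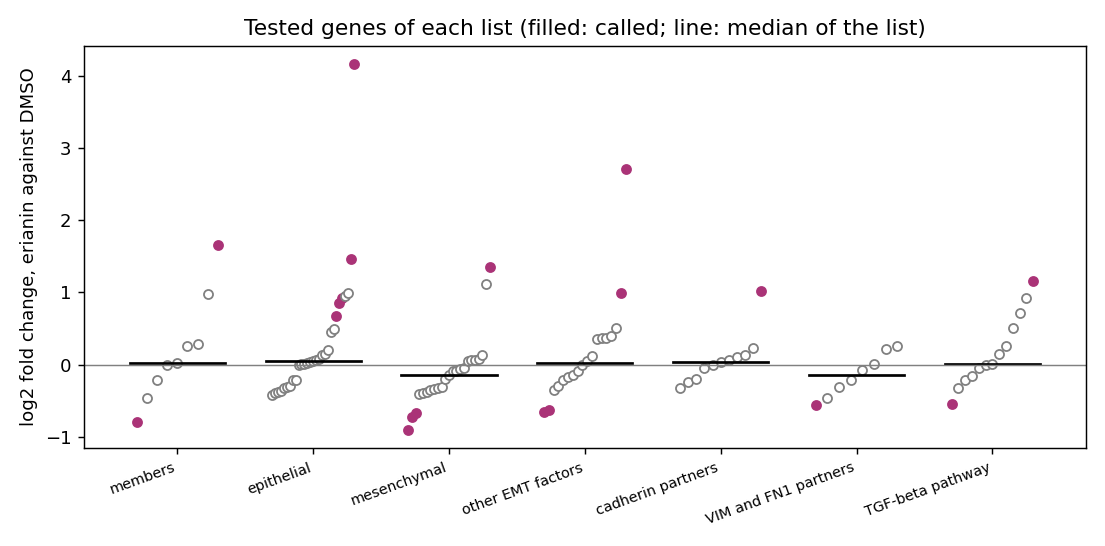
Log2 fold change, erianin against DMSO, of each tested gene of the EMT set and of 6 related lists, with called genes filled and a line at the median of each list. The medians lie between -0.15 and 0.06, and single genes such as SNAI1 at 1.65, COL1A2 at 1.35 and TNC at -0.90 stand away from them.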

How the data were processed

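The authors extracted total RNA from CAL62 cells, sequenced it on a BGISEQ-500 and deposited raw read counts per gene. The submitters' processing notes name fastp 0.23.2, STAR 2.7.10, featureCounts 2.0.1, StringTie 2.2.1 and GRCh38. The annotation and the use of strand are not given in the sources used here, so reads of overlapping, antisense and near-identical genes (the processed pseudogenes of keratins, for example) may be mixed. The authors also deposited TPM values. Among 10482 genes, the length behind these TPM values lay within 0.2 log2 units of the summed length of all GENCODE 29 transcripts of the gene for 96.6%, so levels between genes were not taken from TPM, except that the most abundant genes of each list were picked by mean TPM as the rule was written. The TPM columns summed to 73.5%, 72.6% and 59.1% of their nominal total in DMSO and 77.2%, 75.1% and 78.3% with erianin, and were tested without rescaling. Of 65807 rows, 26480 carried no identifier, held 0.00385% to 0.00515% of the counts and were left out.

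Counts were tested with edgeR 4.0.16 in R 4.3.3 (TMM, filterByExpr, glmQLFit and glmQLFTest, no block), as erianin against DMSO, with BH adjustment. DESeq2, which the study's methods name, was run as an alternative (version 1.42.0). On simulated counts of 12689 genes for 3 against 3 libraries, 198 of 200 genes changed 2-fold were recovered and 5 unchanged genes were called. The simulated libraries all had the same spread, with none set apart as DMSO replicate 3 was, and only genes with many reads were changed. These figures check the code and do not measure recovery or false calls in the data themselves. Intervals are at 95%. The genes described are the 10 EMT genes, the called genes and up to 4 of the most abundant of each list, and the 3 nearest profiles of each EMT gene with a mean of at least 1 CPM. ESRP2, TCF3, COL1A1, ZEB1-AS1, genes named only for a call in another fit, and the ratios between genes were added after their values were seen. Some genes that this rule selects are not reported here. The EMT genes and the lists were chosen with earlier results of these data known. Other fits used RLE and upper-quartile factors, no filter, at least 10 counts in every library, limma 3.58.1 on log2(TPM + 1) for genes at an average TPM of 1 or more, also with 0.1 added or without that filter, removal of a loess trend on GC content (span 0.5), the replicate number as a block, and each library left out. Levels per kb were also computed on merged exons, a choice made after seeing the data.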

Additional observations from a re-analysis of the deposited data

How the results depend on the processing

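SNAI1 was called higher in all 17 alternative fits (log2 fold change 1.55 to 1.85), and SNAI2, TWIST1, EPCAM, FN1, VIM and CDH2 kept their direction in all 17, CDH2 only just by limma on TPM (-0.0012 to -0.0011). Leaving out 1 library in turn gave 309 to 2282 DEGs against 1119, the highest without DMSO replicate 3, and fewer samples then carry each test. The same fits called 1 to 2 EMT genes higher and 0 to 2 lower, 0 to 8 epithelial genes, 1 to 5 other factors, 0 to 1 cadherin partners, 0 to 2 vimentin and fibronectin partners and 0 to 4 TGF-beta pathway genes. VIM lay between -0.55 (called, without DMSO replicate 2) and -0.34 (without DMSO replicate 3), FN1 between -0.87 and -0.67, and SNAI2 between 0.71 and 1.26. FN1 was not called without erianin replicate 1 (-0.80) or 3 (-0.74). ZEB1 lay between -0.24 and 0.48, with 0.08 without erianin replicate 2, and ZEB2 between -0.11 and 0.32, with -0.11 without DMSO replicate 1 or 2. Without a fold-change threshold 1912 genes passed, of which 2 EMT genes were lower. DESeq2 called 2 EMT genes higher (SNAI2 at 0.99) and 4 TGF-beta pathway genes. Limma on log2(TPM + 1) called 2 EMT genes higher (SNAI2 at 0.81), 2 epithelial genes and 0 vimentin and fibronectin partners. With 0.1 added it called 3 epithelial genes, 0 vimentin and fibronectin partners and 1 TGF-beta pathway gene, and without the filter 0 and 1 of the latter lists. Upper-quartile factors gave 1 TGF-beta pathway gene. ZEB1 was above 0 with upper-quartile factors (0.042), at least 10 counts in every library (0.0018), and limma with 1 added, with or without the filter (0.19), and with 0.1 added (0.28). ZEB2 was at -0.071 with the GC trend removed and -0.058 with the GC trend and the block. Of the DEGs 61.5% were higher, against 73.3% with upper-quartile factors and 92.2% with limma on log2(TPM + 1), where the median of all genes moved to 0.18. The TPM columns have lower totals in DMSO (59.1% to 73.5% of nominal) than with erianin (75.1% to 78.3%). No fit rescaled the TPM columns, and the cause of these and the other moves was not tested.

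Same-numbered libraries were not treated as paired, since deviations from the group mean correlated, number by number, at 0.00138, 0.0253 and -0.0329. With the replicate block 665 DEGs were called, SNAI1 was at 1.66 and FN1 at -0.79, both called, ZEB1 was at 0.090 and 0 TGF-beta pathway genes were called, with 5 at an unadjusted p under 0.05. With 3 libraries per group, 1 of them apart, TWIST1 and EPCAM passed the adjusted p in some fits and not in others, under the fold-change threshold in all, and CDH1 rests on 0 to 9 reads per library. The length used set the levels per kb of FN1 (336 on merged exons), VIM, EPCAM, TWIST1 and ZEB2.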
